A study of Mus musculus with 25 samples.

Results

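The small leucine-rich proteoglycans (SLRPs) are 10 genes of the 37406 in the expression table, namely Bgn, Dcn, Aspn, Lum, Kera, Fmod, Prelp, Omd, Ogn and Epyc. They were chosen by name as members of the gene family, with earlier results of these data known, and all 10 were found in the table. RNA was taken by laser capture microdissection from the palate of wild type CD1 mouse embryos at E14.5, soon after the palatal shelves had met and fused in the midline. The 25 RNA-seq libraries covered 8 compartments, the medial, lateral, oral and nasal palate of the anterior and of the posterior region, each in 3 replicates except anterior nasal, which had 4. The medial and lateral captures divide the shelf across its width and the oral and nasal captures divide it from mouth side to nose side. How far the tissue of both divisions overlaps, and how much oral and nasal tissue a lateral library holds, is not given. All libraries are labelled as CD1, wild type and E14.5, and none as mutant or treated. The alignment names of 6 libraries (anterior nasal replicate 4, anterior oral replicate 3 and replicate 1 of each posterior compartment) carry the text ERK2_WT or Tgfbr2_WT, which the labels do not explain. The study describes the replicates as biological, but the labels do not tie a library to an embryo, so p-values measure the spread between these libraries.

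SLRPs are secreted proteins whose core of leucine-rich repeats binds collagen fibrils and sets how thick they grow and how far apart they lie. Most carry sulfated sugar chains. In class I (Bgn, Dcn, Aspn) these are chondroitin or dermatan sulfate, and Aspn lacks a typical chain. In class II (Lum, Kera, Fmod, Prelp, Omd) they are keratan sulfate, and Prelp lacks a typical chain. Several members also bind growth factors of the TGFβ and BMP families. In the forming palate the mesenchyme lays down the collagen matrix on which these proteins sit, ahead of the bone of the hard palate.

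The labels were checked against 2 position genes. Shox2, an anterior palate transcription factor, lay between 98.7 and 156 RPKM (reads normalised for transcript length and for the mapped reads of a library) in the 13 anterior libraries and between 0.0572 and 59.6 RPKM in the 12 posterior ones, whereas Barx1, a posterior one, lay between 0 and 8.41 RPKM and between 48.9 and 123 RPKM, respectively. Defining markers of palate mesenchyme (Prrx1, Twist1, Osr2, Pdgfra, Col1a1) were above 0 in every library, with summed levels of 394 to 712 RPKM. Implied depths lay between 1.64 and 6.56 M reads per library. They are far below the average number of reads per sample that the study states. The study removed duplicate and multi-mapping reads, and the source of the gap was not tested. The libraries least like the others across genes were posterior medial replicate 2 (median r with the other libraries 0.658) and anterior oral replicate 1 (0.719), the latter also the shallowest, and values without them are given beside the results they moved. Libraries fell into 8 sequencing runs, and the anterior lateral and anterior medial libraries shared no run, nor did the posterior lateral and posterior medial ones, so in those comparisons run and compartment cannot be told apart.

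Of the family, 5 genes were among the abundant transcripts of the palate. RPKM is corrected for transcript length, but duplicate reads were removed. The effect of that removal on the levels of abundant genes was not tested, so ranks between genes are approximate. Bgn (biglycan) had the highest mean level, 202 RPKM over 25 libraries, and ranked 100 of all genes in the table. Lum (lumican) followed with 168 RPKM and rank 126, Ogn (osteoglycin) with 139 RPKM and rank 176, Dcn (decorin) with 104 RPKM and rank 293, and Aspn (asporin) with 69.2 RPKM and rank 607. Each of these genes stood at 10 RPKM or more in all 25 libraries. Kera (keratocan) averaged 21.7 RPKM, Fmod (fibromodulin) 16.8 RPKM and Omd (osteomodulin) 15.7 RPKM. Prelp averaged 4.92 RPKM and reached 5 RPKM in 12 libraries. Epyc (epiphycan), a cartilage proteoglycan, averaged 0.164 RPKM, was listed at 0 in 13 libraries and rested on at most 5 reads in any library, so no difference in Epyc was resolvable at this depth.

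The members differed widely in how much they varied. The highest library exceeded the lowest by 826-fold for Kera, whose coefficient of variation over the 25 libraries was 175%. Prelp followed with 151-fold and 78.8% and Fmod with 32.6-fold and 57.1%. Bgn was the steadiest, with 2.64-fold between its extreme libraries and a coefficient of variation of 25.3%, and Lum next, with 4.4-fold and 31.7%.

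**Figure D1:**
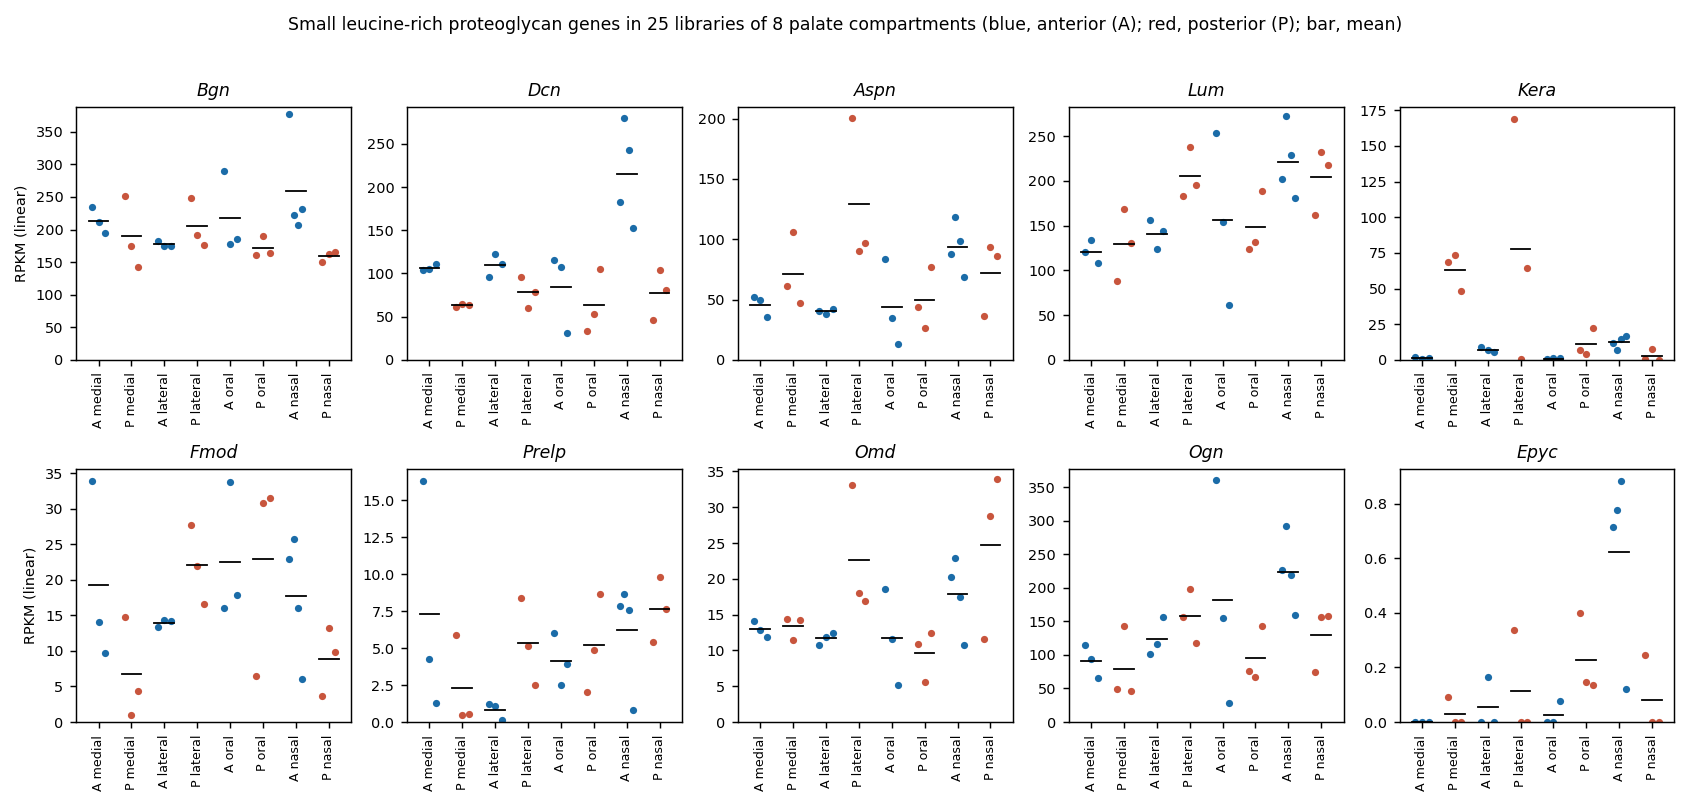
RPKM (linear axis, from 0) of the 10 genes in each of the 25 libraries, by compartment (A, anterior; P, posterior), with 1 point per library and a bar at the mean. Kera stood above 45 RPKM only in posterior medial and posterior lateral libraries, and Dcn was highest in the 4 anterior nasal libraries, at 152 to 280 RPKM.

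Of the 10 genes, 9 lie in tight clusters, by the mm9 coordinates of the table. On chromosome 10, Dcn (96942134 to 96980796), Lum (97028135 to 97035337), Kera (97069839 to 97076322) and Epyc (97106702 to 97144534) span 202 kb, with no other listed gene between them. On chromosome 13, Aspn (49639812 to 49662931), Omd (49678116 to 49687978) and Ogn (49703440 to 49719869) span 80.1 kb. Prelp (135806882 to 135817978) and Fmod (135934092 to 135944854) are 116113 bases apart on chromosome 1, and Bgn (70728974 to 70741275) is on the X chromosome. The chromosome 13 genes lie inside the listed span of Cenpp, a kinetochore gene, which ran from 8.56 to 69.1 RPKM. In the GENCODE M21 annotation of GRCm38, Cenpp is on the opposite strand and its exons share 7 bases with those of Aspn and 0 with those of Omd and Ogn. No strand setting is given in the sources used here, so reads cannot be assigned by strand where the spans overlap. By that annotation the exons themselves overlap Cenpp exons at those 7 bases alone. Cenpp levels had a Pearson's r of 0.22 with Aspn, 0.04 with Omd and -0.11 with Ogn over the 25 libraries.

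Promoters are shown for Kera, the most variable member, and for the chromosome 13 neighbours, because Aspn and Omd followed each other closely across libraries and Ogn less so. This order did not hold within compartments. After the group means were taken away, Pearson's r was 0.86 for Aspn and Omd and 0.88 for Aspn and Ogn. The promoters are RefSeq sequences of GRCm38.p6, a later build than the coordinates above, for the 250 bases before the annotated start, read 5′ to 3′ on the plus strand, on which all 4 genes lie. The windows are chr10:97606955-97607204 for Kera, chr13:49544193-49544442 for Aspn, chr13:49582212-49582461 for Omd and chr13:49607765-49608014 for Ogn. Capitals mark every match to TATAAA or CCAAT on either strand.
Kera: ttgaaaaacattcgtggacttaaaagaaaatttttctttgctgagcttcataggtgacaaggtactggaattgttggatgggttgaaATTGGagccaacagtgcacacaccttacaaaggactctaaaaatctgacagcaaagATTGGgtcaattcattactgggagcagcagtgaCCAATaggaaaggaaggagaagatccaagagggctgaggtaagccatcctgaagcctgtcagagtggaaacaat
Aspn: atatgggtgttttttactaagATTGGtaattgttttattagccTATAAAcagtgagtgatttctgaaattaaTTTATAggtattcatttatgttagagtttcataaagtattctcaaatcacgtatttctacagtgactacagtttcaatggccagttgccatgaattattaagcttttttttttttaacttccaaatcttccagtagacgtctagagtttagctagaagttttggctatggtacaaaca
Omd: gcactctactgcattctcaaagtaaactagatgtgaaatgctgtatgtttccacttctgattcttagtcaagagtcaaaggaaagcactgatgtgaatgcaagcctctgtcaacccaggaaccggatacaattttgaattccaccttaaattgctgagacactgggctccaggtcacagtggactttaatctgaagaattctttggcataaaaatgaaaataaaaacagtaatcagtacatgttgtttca
Ogn: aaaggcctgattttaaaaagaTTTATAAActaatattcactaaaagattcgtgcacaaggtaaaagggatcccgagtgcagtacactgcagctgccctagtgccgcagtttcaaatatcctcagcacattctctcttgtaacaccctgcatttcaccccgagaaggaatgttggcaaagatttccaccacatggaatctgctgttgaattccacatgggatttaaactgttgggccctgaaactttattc

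The Kera window held CCAAT 3 times, at positions -163, -107 and -74 from the start, and no TATAAA. Windows with 3 or more matches to CCAAT were 2.79% of the 32851 promoter windows of this length, and 33.8% had at least 1. TATAAA was found at -207 and -178 in Aspn and, as 2 overlapping matches, at -229 and -227 in Ogn, against 12.4% of all windows. Omd had neither motif, and CANNTG, the E-box, which 66.2% of windows hold, was found once in Aspn, 3 times in Ogn and in neither Kera nor Omd. Matches of this kind describe letters only and are not shown to be binding sites. The windows were rich in A and T, with a GC share of 42.4% in Kera, 30% in Aspn, 38.4% in Omd and 42% in Ogn against a median of 52.4%. Of the 10 genes, 8 were in the promoter table.

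The study compared lateral with medial and oral with nasal tissue within each region, and posterior with anterior, to find genes particular to a compartment. Genes were tested with limma on log2(RPKM + 0.1) with Benjamini-Hochberg adjustment over all genes tested, and a gene is said to have passed where its adjusted p was under 0.05. The pseudocount of 0.1 makes a fold change of a low gene smaller than the ratio of its RPKM values. Of the SLRPs, Kera alone passed in any of the 9 direct comparisons, and it did so in 2 of them. It was higher in anterior lateral than in anterior medial tissue, where 1 of 8 tested members passed against 2.51% of all genes tested. It was also higher in posterior medial than in anterior medial tissue, where 1 of 8 passed against 0.106% of all genes. A gene was tested between 2 compartments where it reached 5 RPKM in at least 3 libraries. Kera did so in both of these comparisons, and in anterior oral against nasal tissue, through the 3 or 4 libraries of the higher group alone, so the filter and the difference rest on the same values and these counts are a description.

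No tested member passed in the other comparisons. The counts were 0 of 9 for posterior lateral against medial and 0 of 9 for anterior oral against nasal, where the share of all genes was 0% in both. They were 0 of 9 for posterior oral against nasal (1.25% of all genes) and 0 of 8 for all posterior against all anterior libraries (3.32%). Posterior against anterior gave 0 of 8 for the lateral compartments (1.39% of all genes), 0 of 7 for the oral (0.179%) and 0 of 9 for the nasal ones (2.21%). An unadjusted p under 0.05 was found for 1 member (Fmod) in posterior lateral against medial tissue (1.54% of all genes), 3 in anterior oral against nasal (2.98%) and 2 in posterior oral against nasal tissue (8%). It was found for 2 members in posterior against anterior over all libraries (15.3%), 5 within lateral (11.6%), 0 within oral (3.57%) and 4 within nasal tissue (18.7%). An F test for any difference among the 8 compartments passed for 0 of 9 members and 4.42% of all genes, with 4 members at an unadjusted p under 0.05 (12% of all genes).

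**Figure D2:**
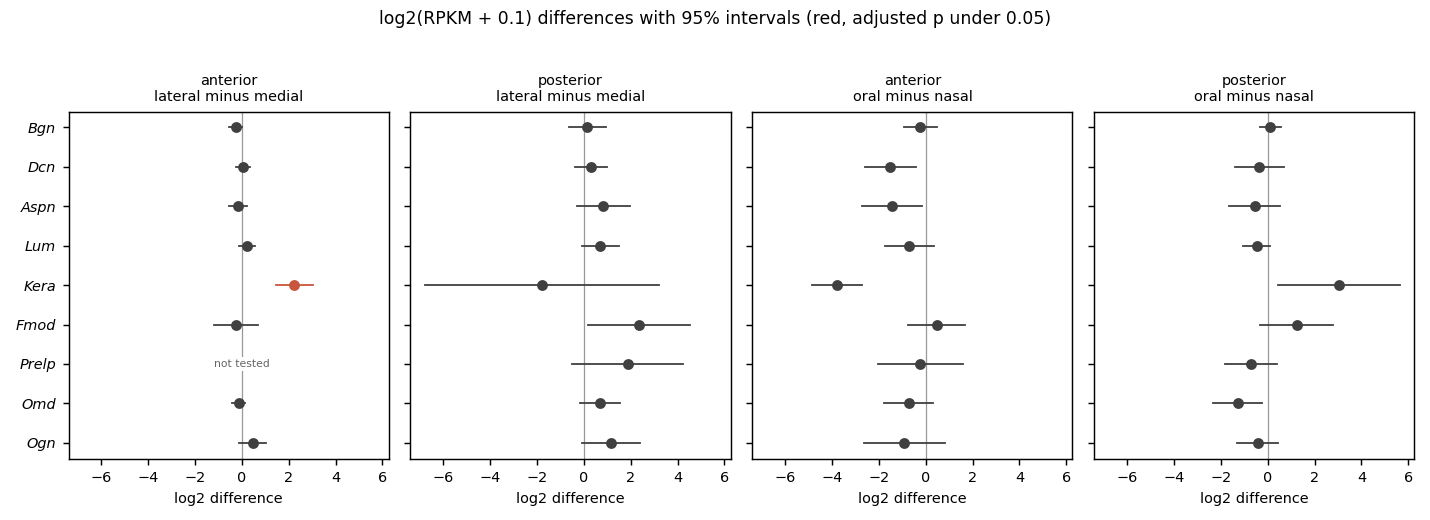
Log2 differences (x axis, log2(RPKM + 0.1) units) with 95% intervals from limma for 9 members in the 4 comparisons within the anterior or the posterior palate, with red for an adjusted p under 0.05. Only Kera in anterior lateral minus medial passed, at 2.23, and 8 of 9 members lay below 0 in anterior oral minus nasal.

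Kera encodes a keratan sulfate proteoglycan best known from the cornea. In anterior lateral libraries it stood at 8.72, 6.66 and 5.77 RPKM and in anterior medial ones at 2.20, 0.782 and 1.58 RPKM. The groups did not overlap, which held in either direction for Kera and Bgn of the 8 tested members and for 21.3% of all genes tested. The difference was 2.23 ± 0.34 (log2, SE, n = 3 and 3), a 4.69-fold higher level in lateral tissue, with an adjusted p of 0.0178 by limma. Kera met the filter through the anterior lateral libraries alone, and without any 1 of them it was not tested. The call was lost without the filter (adjusted p = 0.0908) and in fits of all 25 libraries, where the SE, pooled over the 8 compartments, was 1.41 (adjusted p = 1.00). With sequencing run added to that fit the difference was 5.64 ± 2.80 (log2, SE, adjusted p = 1.00).

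Along the axis, Kera reached 68.4, 73.3 and 48.0 RPKM in posterior medial tissue, each at least 336 reads, against 5 to 14 reads in the anterior medial libraries. All posterior medial libraries lay above all anterior medial ones. The difference was 5.37 ± 0.42 (log2, SE, n = 3 and 3), or 41.4-fold, with an adjusted p of 0.0240 by limma. Within the only run that holds both groups, the difference was 5.30, between 2 posterior and 3 anterior libraries. Kera met the filter through the posterior medial libraries alone, and without the filter the adjusted p was 0.0589. Leaving out 1 anterior medial replicate at a time gave differences between 4.99 and 5.68, with adjusted p between 0.0958 and 0.131. Without any 1 posterior medial library, replicate 2 that stood apart included, Kera no longer met the filter and was not tested.

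Posterior lateral tissue gave the widest spread of Kera within any group. Its libraries stood at 169, 0.430 and 64.6 RPKM, and the low value was 2 reads. The low and one of the high libraries came from the same run. Posterior lateral minus anterior lateral was accordingly 1.35 ± 1.98 (log2, SE), with an adjusted p of 0.861 by limma, and became 3.89 with an adjusted p of 0.0235 when posterior lateral replicate 2 was left out. Posterior lateral minus posterior medial was -1.79 with a 95% interval from -6.78 to 3.20, so neither direction was resolved.

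In the anterior palate, Kera stood at 11.8, 6.99, 14.3 and 16.5 RPKM on the nasal side and at 0.313, 1.18 and 1.10 RPKM on the oral side. Again the groups did not overlap. The oral minus nasal difference was -3.80 ± 0.47 (log2, SE, n = 3 and 4), 13.9-fold lower, and ranked 2 of 10684 genes by p, yet its adjusted p was 0.114 by limma. It was lower in each of the 3 runs that hold both sides, by -4.48 to -3.50. Without anterior oral replicate 1, which stood apart and held 1 Kera read, the adjusted p was 0.0474, whereas it was 0.507 without anterior oral replicate 2 and 0.871 in the fit of all 25 libraries.

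On the posterior side the order of the means was turned round. Kera stood at 7.19, 4.03 and 22.4 RPKM in posterior oral and at 0.422, 7.64 and 0.205 RPKM in posterior nasal libraries, which overlapped. Posterior oral Kera did lie wholly above anterior oral Kera but was not tested there, and 0 of 7 tested members lay without overlap in that direction against 5.39% of all genes. The oral minus nasal difference was 3.03 ± 1.14 (log2, SE), with an adjusted p of 0.463 by limma. The difference between the anterior and the posterior oral minus nasal values, tested as an interaction, was 6.83 with a 95% interval from 3.82 to 9.85, an unadjusted p of 0.00034 and an adjusted p of 0.150, and limma gave an adjusted p of 0.0187 when posterior nasal replicate 2 was left out. For this interaction 0 of 9 members passed against 0.035% of all genes. Posterior nasal minus anterior nasal was -3.48 with an adjusted p of 0.107, and -4.90 with an adjusted p of 0.00214 without that same replicate, but the adjusted p was 0.389 without posterior nasal replicate 1 and 1.00 in the fit with sequencing run. With posterior nasal replicate 2 left out, Kera met the filter through the anterior nasal libraries alone. The filter and the difference then rest on the same values.

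**Figure D3:**
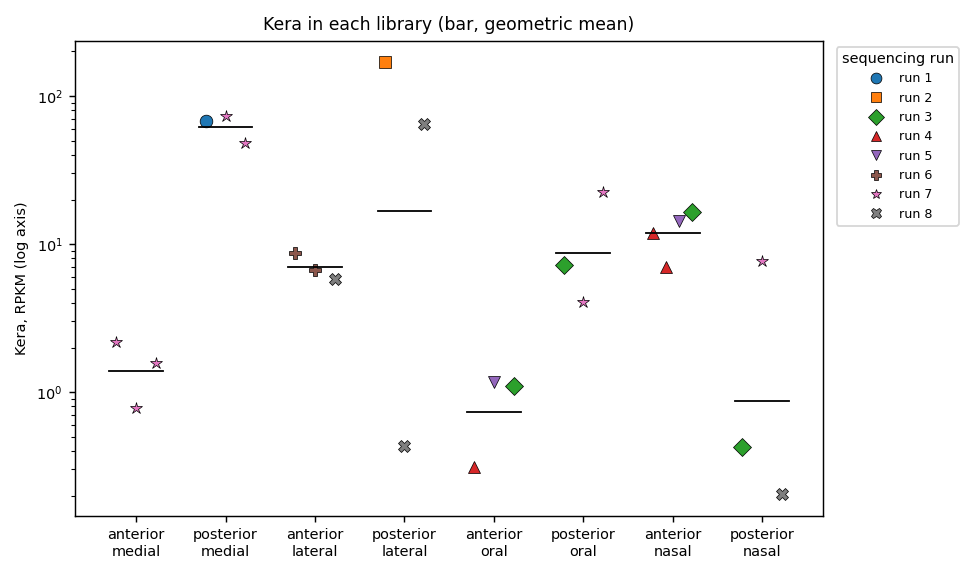
Kera level (RPKM, log axis) in each library by compartment, with symbols for the 8 sequencing runs and a bar at the geometric mean. The posterior medial libraries of run 7 stood at 73.3 and 48.0 RPKM and the anterior medial ones of the same run at 0.782 to 2.20 RPKM, while 2 posterior lateral libraries of run 8 stood at 0.430 and 64.6 RPKM.

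Cell type markers moved beside some of these differences, and their part in them was not tested. In bulk tissue, fewer cells of a type and less RNA per cell cannot be told apart. Of 11 marker lists, 5 had summed levels without overlap between anterior lateral and medial libraries. Cartilage was 21.5 to 22.3 against 68.3 to 111 RPKM, tendon and perichondrium 10.1 to 14.4 against 24.1 to 42.2 RPKM and epithelium 36.5 to 59.5 against 60.8 to 115 RPKM, while smooth muscle and pericyte markers were 124 to 127 against 43.1 to 84.9 RPKM and endothelium was also higher. Between anterior oral and nasal libraries 7 of 11 did not overlap. Palate mesenchyme markers were 430 to 475 against 490 to 586 RPKM. Osteoblast markers were 51.3 to 76.2 against 95.3 to 122 RPKM and cartilage 20.3 to 50.0 against 58.1 to 102 RPKM. Tendon and perichondrium and macrophage markers were also lower on the oral side. Endothelium was higher there, at 121 to 191 against 69.9 to 118 RPKM, as were nerve and Schwann cell markers. Between posterior oral and nasal libraries 2 of 11 did not overlap, osteoblast markers at 86.7 to 108 against 380 to 552 RPKM and endothelium at 126 to 191 against 55.2 to 85.9 RPKM. Between posterior and anterior medial libraries 1 of 11 did not overlap, the nerve and Schwann cell markers, at 19.2 to 35.4 against 9.62 to 18.3 RPKM. Matn1, which marks mature cartilage, was listed at 0 in 10 libraries and Bglap, which marks mature osteoblasts, in 14.

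**Figure D4:**
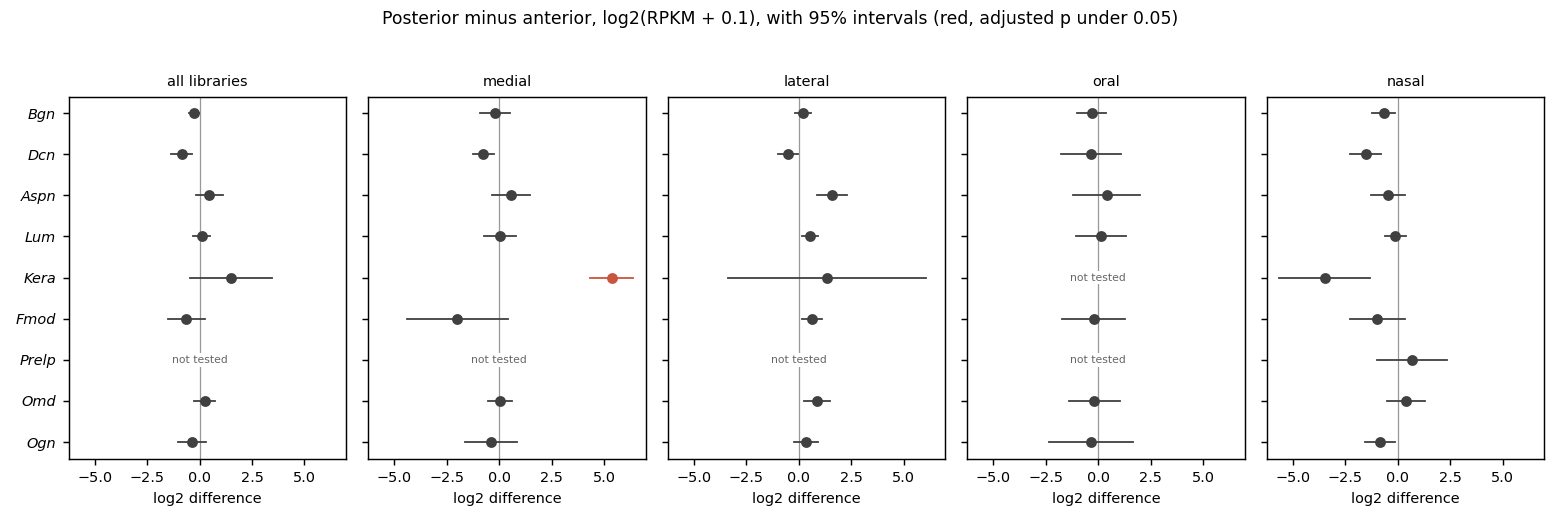
Posterior minus anterior log2 differences (x axis, log2(RPKM + 0.1) units) with 95% intervals from limma for 9 members, over all libraries and within each compartment, with red for an adjusted p under 0.05. Only Kera in medial tissue passed, at 5.37, while Dcn lay below 0 in all 5 panels, from -1.52 in nasal tissue to -0.36 in oral tissue.

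Of the class I members, Dcn, which binds collagen I fibrils and TGFβ, differed most along the axis in nasal tissue. In the anterior nasal libraries it stood at 183, 280, 243 and 152 RPKM and in the posterior nasal ones at 45.9, 104 and 80.7 RPKM. The groups did not overlap, which held in that direction for Dcn, Ogn and Bgn and for 5.91% of all genes tested. The difference was -1.52 ± 0.33 (log2, SE, n = 3 and 4), or 2.87-fold lower, with an adjusted p of 0.0534 by limma, between 0.0286 and 0.0380 in the 4 settings in which it passed, 0.207 without the filter on low values and 0.452 in the fit with sequencing run. It was 0.182 without posterior nasal replicate 1 and 0.0418 without anterior nasal replicate 4. Of 11 marker lists 3 did not overlap between these groups, with osteoblast markers at 380 to 552 RPKM in posterior and 95.3 to 122 RPKM in anterior nasal, smooth muscle and pericyte markers at 39.2 to 49.2 against 58.2 to 147 RPKM, and palate mesenchyme markers at 449 to 472 against 490 to 586 RPKM. Their part in the difference was not tested.

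In medial tissue, Dcn stood at 60.6, 64.5 and 63.8 RPKM in the posterior and at 104, 105 and 110 RPKM in the anterior libraries. These groups did not overlap, which held in either direction for Kera and Dcn and for 11.9% of all genes tested. The difference was -0.76 ± 0.21 (log2, SE) with an adjusted p of 0.684 by limma, and -0.77 (adjusted p = 0.267) without posterior medial replicate 2. Over all 12 posterior libraries Dcn ran from 33 to 105 RPKM (median 64.2) and over all 13 anterior ones from 31.6 to 280 RPKM (median 111). The difference over all libraries was -0.85 ± 0.25 (log2, SE), 1.80-fold, with an unadjusted p of 0.0021 and an adjusted p of 0.0587 by limma. Without posterior medial replicate 2 and anterior oral replicate 1 it was -0.85 with an adjusted p of 0.0638.

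Dcn also differed between the sides of the anterior palate. The anterior oral libraries stood at 116, 107 and 31.6 RPKM, all below the anterior nasal ones, which held in that direction for Kera and Dcn of the 9 tested members and for 2.03% of all genes tested. The difference was -1.51 ± 0.48 (log2, SE), with an unadjusted p of 0.0129 but an adjusted p of 1.00 by limma, and -1.84 (adjusted p = 0.498) without anterior oral replicate 1. It was lower in each of the 3 shared runs, by -2.27 to -0.97. In the lateral minus medial comparisons Dcn gave 0.03 in the anterior and 0.29 in the posterior palate, with 95% intervals from -0.27 to 0.33 and from -0.39 to 0.97.

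Aspn, which binds collagen and, in cartilage and periodontal tissue, TGFβ and BMP ligands, showed its largest difference in lateral tissue. It stood at 201, 90.0 and 97.1 RPKM in posterior lateral and at 40.7, 38.1 and 42.3 RPKM in anterior lateral libraries. Every posterior library lay above every anterior one. The difference was 1.58 ± 0.31 (log2, SE, n = 3 and 3), or 2.99-fold, with an adjusted p of 0.0775 by limma, and 1.21 with an adjusted p of 0.00995 without the high posterior lateral replicate 1. The adjusted p was 0.367 without anterior lateral replicate 2 and 1.00 in the fit with sequencing run. Within the only run that holds both groups the difference was 1.14. In the anterior palate, Aspn stood at 83.6, 34.5 and 13.2 RPKM on the oral and at 87.9, 119, 98.4 and 68.4 RPKM on the nasal side, overlapping, with a difference of -1.44 (unadjusted p = 0.032, adjusted p = 1.00, limma), and -2.10 (adjusted p = 0.259) without anterior oral replicate 1.

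Bgn, which binds collagen and BMP ligands, was the steadiest of the family. It stood at 183, 175 and 175 RPKM in anterior lateral and at 235, 211 and 194 RPKM in anterior medial libraries. Lateral lay wholly below medial, with a difference of -0.26 and an adjusted p of 0.358 by limma. In nasal tissue it stood at 151, 162 and 165 RPKM in the posterior and at 377, 223, 206 and 232 RPKM in the anterior palate. These groups did not overlap either, and the difference was -0.66 with an adjusted p of 0.205. Over all libraries, posterior minus anterior was -0.27 with an unadjusted p of 0.036 and an adjusted p of 0.283 by limma.

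Of the class II members, Lum, which spaces collagen fibrils in cornea and skin, stood at 183, 237 and 195 RPKM in posterior lateral libraries. It stood at 88.4, 168 and 131 RPKM in posterior medial ones and at 156, 123 and 144 RPKM in anterior lateral ones. Posterior lateral lay above both groups without overlap. The differences were 0.71 from posterior medial (adjusted p = 0.957) and 0.54 from anterior lateral (adjusted p = 0.253), by limma, and the comparisons share the posterior lateral libraries. Without posterior medial replicate 2 the first was 0.92 (adjusted p = 1.00).

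Fmod, which binds the same site on collagen I as Lum, had a parallel difference of larger size in lateral tissue of the posterior palate. It stood at 27.7, 21.9 and 16.7 RPKM in posterior lateral and at 14.8, 1.04 and 4.35 RPKM in posterior medial libraries, which did not overlap. The difference was 2.36 ± 0.90 (log2, SE), with an unadjusted p of 0.037 and an adjusted p of 0.957 by limma. The lowest value was that of posterior medial replicate 2, the library that stood apart, and without it the difference was 1.42 with an adjusted p of 1. In medial tissue, posterior minus anterior Fmod was -1.99 (adjusted p = 0.831, limma) and passed only in the fit of all 25 libraries with sequencing run (adjusted p = 0.0399). Within the only run that holds both groups the difference was -2.90, between 2 posterior libraries, replicate 2 among them, and 3 anterior ones. Without posterior medial replicate 2, the posterior minus anterior medial difference was -1.04 (adjusted p = 0.845, limma). Anterior lateral Fmod was even, at 13.4, 14.4 and 14.2 RPKM, and lay wholly below posterior lateral.

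Omd, found in bone and tooth matrix, stood at 33.0, 18.0 and 16.9 RPKM in posterior lateral libraries, above 14.4, 11.4 and 14.3 RPKM in posterior medial and 10.8, 11.9 and 12.4 RPKM in anterior lateral ones. Both of the latter groups lay below posterior lateral and overlapped each other. Between posterior lateral and medial tissue the members without overlap were thus Omd, Lum and Fmod, all higher in lateral tissue, against 3.02% of all genes in that direction. Marker lists without overlap there were 4 of 11, epithelium at 21.0 to 31.5 against 46.8 to 112 RPKM, skeletal muscle at 22.3 to 124 against 0.297 to 17.3 RPKM, smooth muscle and pericytes at 25.3 to 36.7 against 55.8 to 119 RPKM and nerve and Schwann cells at 10.4 to 14.9 against 19.2 to 35.4 RPKM. Between posterior and anterior lateral tissue they were Omd, Lum, Fmod and Aspn of the 8 tested members, all higher in the posterior, against 8.13% of all genes in that direction. Here 7 of 11 marker lists did not overlap, with cartilage at 47.3 to 78.3 against 21.5 to 22.3 RPKM, tendon and perichondrium at 34.2 to 45.6 against 10.1 to 14.4 RPKM, skeletal muscle at 22.3 to 124 against 0.752 to 19.6 RPKM and smooth muscle and pericytes at 25.3 to 36.7 against 124 to 127 RPKM. Red cell markers were also higher, and epithelium and nerve and Schwann cell markers lower, in the posterior, and the part of these lists in either comparison was not tested. The posterior lateral minus medial difference lay above 0 for 8 of 9 tested members, Kera being the exception, as for 54.3% of all genes, with a median of 0.71 against 0.05 for all genes. Posterior minus anterior within lateral tissue lay above 0 for 7 of 8, Dcn being the exception, as for 45.8% of all genes, with a median of 0.58 against -0.03 for all genes. Both counts rest on the same posterior lateral libraries.

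On the oral and nasal sides, Omd stood at 10.9, 5.66 and 12.5 RPKM in posterior oral and at 11.6, 28.8 and 33.9 RPKM in posterior nasal libraries. The groups overlapped at 1 library each. The difference was -1.29 ± 0.45 (log2, SE), with an unadjusted p of 0.0206 and an adjusted p of 0.391 by limma, beside the osteoblast marker sums given above. In the anterior palate, oral minus nasal lay below 0 for 8 of 9 tested members and 52.4% of all genes, with a median of -0.72 against -0.01 for all genes. At an unadjusted p under 0.05, Kera, Dcn and Aspn were the members with lower values on the oral side. In the posterior palate 6 of 9 members and 52.2% of all genes lay below 0, with a median of -0.43 against -0.01.

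Prelp, which links collagen to basement membranes, was low throughout. Its anterior lateral libraries stood at 1.20, 1.11 and 0.108 RPKM, the last, its lowest value, taken as a single read, and its posterior lateral ones at 8.41, 5.13 and 2.51 RPKM. These groups did not overlap. Anterior medial libraries ran from 1.28 to 16.3 RPKM, wholly above anterior lateral. Prelp did not reach 5 RPKM in enough libraries to be tested in these comparisons. The difference between the posterior and the anterior lateral minus medial values could be tested for 9 members, and 0 passed against 0.00902% of all genes.

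Of the class III members, Ogn, a bone and vessel wall proteoglycan, stood at 227, 291, 219 and 159 RPKM in anterior nasal and at 74.5, 156 and 158 RPKM in posterior nasal libraries. The groups did not overlap, by a narrow gap. The difference was -0.84 with an unadjusted p of 0.028 and an adjusted p of 0.220 by limma. Anterior oral libraries spread from 27.8 to 360 RPKM, the widest range of Ogn in any compartment, with the highest value in replicate 1, which stood apart. Without that replicate, anterior oral minus nasal Ogn moved from -0.92 to -1.74 (adjusted p = 0.537), Lum from -0.70 to -1.16 (adjusted p = 0.525) and Omd from -0.72 to -1.14 (adjusted p = 0.537). Without posterior medial replicate 2, posterior lateral minus medial was 1.69 for Ogn (adjusted p = 0.558) and 1.16 for Aspn (adjusted p = 1.00), against 1.16 and 0.84 with it, and 0.59 for Omd (adjusted p = 1.00), against 0.70. Posterior minus anterior within medial tissue moved from -0.37 to -0.90 for Ogn (adjusted p = 0.451). Epyc was above 0 in all 4 anterior nasal libraries, at 0.714, 0.779, 0.883 and 0.123 RPKM, and in 1 of 3 anterior oral ones, at 0.0760 RPKM. It was also above 0 in all 3 posterior oral libraries, at 0.399, 0.145 and 0.135 RPKM. In anterior lateral, posterior lateral, posterior medial and posterior nasal tissue it was at 0 in 2 of 3 libraries each, and in all 3 anterior medial ones. These values rest on at most 5 reads, so no compartment is set apart.

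The order of compartments differed between members. Anterior nasal tissue had the highest mean of Dcn, Bgn, Lum and Ogn, posterior lateral that of Kera and Aspn, posterior nasal that of Omd and Prelp, and posterior oral that of Fmod. The highest mean stood clear of the next one for Dcn, at 215 ± 57.8 RPKM (SD, n = 4) against 110 ± 13.5 RPKM (n = 3) in anterior lateral tissue. For the other members, Epyc aside, the libraries of the first and second compartments overlapped and their means differed by less than the larger SD, as for Fmod at 22.9 ± 14.3 RPKM in posterior oral and 22.6 ± 9.77 RPKM in anterior oral tissue, so these first places do not hold beyond the spread. For Kera, posterior lateral (78.0 ± 85.1 RPKM, SD, n = 3) and posterior medial (63.2 ± 13.4 RPKM, n = 3) did not differ beyond their spread, and posterior medial stood clear of anterior nasal (12.4 ± 4.1 RPKM, n = 4).

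Across the 25 libraries, which share compartments and runs, several of the abundant members varied together. Ogn and Lum had a Pearson's r of 0.88, and each was the gene most like the other among all genes with at least 5 RPKM in 3 libraries. Omd and Aspn, neighbours on chromosome 13, had an r of 0.83, Aspn and Lum 0.77, Ogn and Dcn 0.72, and Ogn and Aspn 0.71. Kera followed its chromosome 10 neighbours weakly, with an r of -0.02 with Lum and 0.12 with Dcn, and reached 0.42 with Aspn. Fmod too had a low r with Aspn (0.01) and Lum (0.07), against 0.55 with Prelp. Over 36 pairs of 9 members, without Epyc, r ranged from -0.21 to 0.88 with a median of 0.32. The 7 pairs on 1 chromosome had a median r of 0.57 and the other 29 pairs one of 0.30. Within compartments, after the group means were taken away, the r of Ogn and Lum was 0.92.

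**Figure D5:**
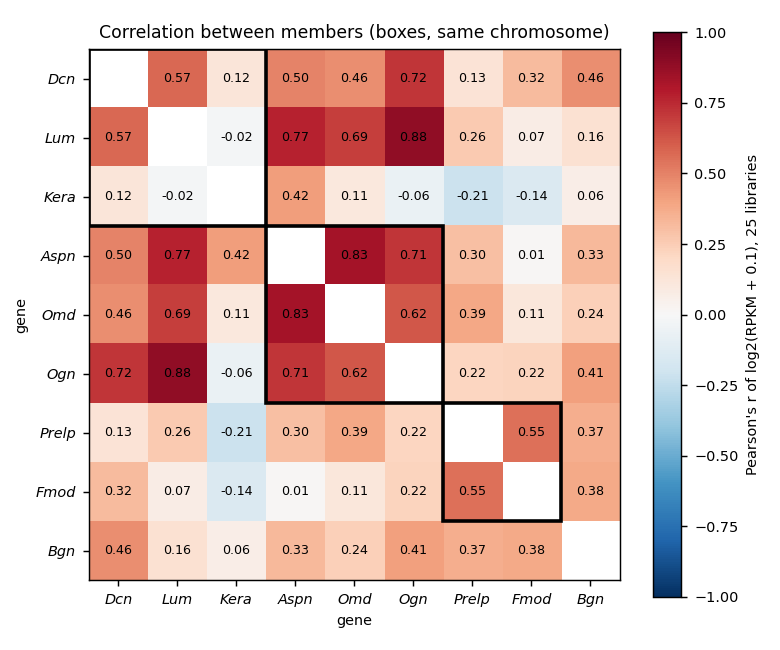
Pearson's r between 9 members over 25 libraries (log2(RPKM + 0.1), colour scale from -1 to 1), with boxes around genes of 1 chromosome. Ogn and Lum, on different chromosomes, reached 0.88, whereas Kera and Lum, neighbours on chromosome 10, reached -0.02.

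The genes most like each member outside the family were found over the same libraries. Kera was closest to Pcdh10, a protocadherin (r = 0.81), which ran from 18.2 to 28.9 RPKM in posterior medial and from 0.879 to 1.30 RPKM in anterior medial libraries, and next to Slc19a2 (0.81) and Sostdc1, a secreted inhibitor of BMP and Wnt signals (0.79). Dcn was closest to Cdh11, a mesenchymal cadherin (0.84), Lox, the enzyme that cross-links collagen (0.81), and Tpm1 (0.78). Aspn was closest to the fibrillar collagen Col11a1 (0.87), and Ogn after Lum to Mbnl1 (0.86) and the elastic fibre protein Fbln5 (0.83). Bgn was closest to Lrrn4cl (0.82), Snai2 (0.82) and Mrap2 (0.81), and Fmod to Dio3os, Klhl13 and Ephb1 (0.81 to 0.82). Omd after Aspn was closest to Mdfic and Ccng1 (0.74 each), Lum after Ogn to Zfp36l2 (0.83) and Sod2 (0.78), and Prelp to Tsc22d1, Klf4 and Adamts14 (0.69 to 0.72).

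The partners of SLRPs were followed as lists of named genes. Of the fibrillar collagens and their partners, 15 of 18 were tested along the axis, where 4 were higher in the posterior palate and 2 lower, against 3.32% of all genes passing, with a median of 0.04 against 0.03 for all genes. Col14a1, a collagen on the surface of fibrils that binds Dcn, ran from 17.8 to 57.4 RPKM in anterior and from 0.304 to 18.8 RPKM in posterior libraries, a difference of -3.06 ± 0.38 (log2, SE, adjusted p = 7.4e-06, limma). The anterior libraries alone met the filter for Col14a1, whose posterior median was 5.57 RPKM. Its filter and its difference thus rest on the same values, and its call is a description. Col12a1, its close relative, was higher in the posterior palate by 1.65 ± 0.24 (adjusted p = 6.4e-05), as were Col2a1 by 1.20 and Col6a3 by 0.85, and Fn1 was lower, at -0.34. In the 4 comparisons within a region, 0 of 15 tested collagens and partners passed, against 0% to 2.51% of all genes.

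Among 9 genes listed for the processing of SLRPs and procollagens, Pcolce, which speeds the cleavage of procollagen but is not itself a protease, was higher in the posterior palate by 1.02 ± 0.15 (adjusted p = 5.4e-05, limma) and lower in anterior lateral than medial tissue, at -0.89. No other tested member of that list passed in these comparisons, where 0% to 3.32% of all genes did. Of the growth factors and receptors bound by SLRPs, 13 were tested between anterior lateral and medial tissue and 4 passed, against 2.51% of all genes. Egfr, a receptor that Dcn binds, was higher in lateral tissue by 1.78 ± 0.17 (adjusted p = 0.0034), as were Itga2 (0.92) and Tgfb3 (0.83), and Bmp2 was lower, at -0.94. Egfr and Itga2 met the filter through the lateral libraries alone. Bmp2 was also lower in the posterior palate, at -0.73 (adjusted p = 0.0039), the only one of 10 tested there to pass, against 3.32% of all genes.

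Podn, an SLRP relative of another class, was higher in posterior oral tissue, at 9.13 to 15.7 RPKM, than in posterior nasal tissue, at 1.04 to 2.30 RPKM, with a difference of 2.67 ± 0.34 (log2, SE, adjusted p = 0.0142, limma). It met the filter through the oral libraries alone, and was 1 of 2 tested genes of the 9 SLRP relatives, where 1.25% of all genes passed. Of 22 genes that build the glycosaminoglycan linker and chondroitin or dermatan sulfate, 10 to 19 were tested in the lateral with medial, oral with nasal and posterior with anterior comparisons, and 0 passed. Of all genes, 0% to 3.32% passed in these comparisons, so a count of 0 sets neither list apart. Of 7 genes of keratan sulfate synthesis, the other list, 3 were tested in each of these comparisons and 0 passed.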

How the data were processed

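RNA was captured by laser from 8 compartments of E14.5 mouse palate, extracted, amplified (NuGEN Ovation RNA-Seq V2), tagmented with Nextera and sequenced. The deposited table gives RPKM values of 37406 genes, which the authors computed in GeneSpring 12.6.1 after removing duplicate and multi-mapping reads. The labels name TopHat and mm9, and the gene annotation is not given in the sources used here. Groups came from the labels and sequencing runs from the alignment names in the study's column headers. Of the 25 columns, all were mapped and none were identical.

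Comparisons used limma 3.58.1 (R 4.3.3) on log2(RPKM + 0.1), fitted to the libraries of the groups compared, with Benjamini-Hochberg adjustment over all genes tested. Pairs of compartments needed 5 RPKM in at least 3 libraries and posterior against anterior 10 RPKM in at least 6. Depth was inferred from the steps between low values, and 549 of 552 ratios between libraries were the same by way of a reference library. Of the values above 0 of Kera, Prelp and Epyc, 60%, 72% and 91.7% came out as whole reads, within 0.02 of a read, so no count test was run. Read numbers cover counting error only. Named genes were the 10 members, up to 3 passing genes per list, direction and comparison, the 3 genes most like each member, and Shox2 and Barx1. The members and lists were chosen with earlier results of these data known.

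Replicate numbers were taken to pair the anterior oral and nasal libraries alone, where deviations of every same-numbered pair from their group means correlated at over 0.1 (0.116 to 0.243). Only replicate 1 of both sides shared a sequencing run. Single pairs elsewhere were as high, as in posterior against anterior oral tissue (-0.396 to 0.327). Pairs of unlike number were not compared, so the pairing is not shown. The fit of anterior oral against nasal tissue with the replicate block called 0 of 9 members, as without it. Alternatives were the pseudocount, filters, scaling, a mean-variance trend, the replicate block, 1 fit of all libraries with or without sequencing run, and leaving out each replicate. Scripts were tested on simulated data, with Python 3.11.15 and pandas 2.3.3.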

Additional observations from a re-analysis of the deposited data

Results flagged for a closer look

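In the 4 anterior nasal libraries, the only group large enough for a check of single values, 2 members had a library far from the others. Bgn stood at 377 RPKM in replicate 1 against 206 to 232 RPKM in the rest, a gap of 0.848 of the group's range. Prelp stood at 0.819 RPKM in replicate 4 against 7.59 to 8.64 RPKM in the rest, a gap of 0.865 of the range. The limit for 4 samples is 0.829, and chance passes it in about 1 of 20 groups.

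Differences of the same contrast between the anterior and the posterior palate stood out for 4 members at an unadjusted p under 0.05, and none of them passed the adjustment over all genes by limma. For lateral minus medial, the posterior value exceeded the anterior one by 4.63 for Prelp (unadjusted p = 0.0163), 2.61 for Fmod (unadjusted p = 0.0379) and 0.84 for Omd (unadjusted p = 0.04) on the log2 scale, with an adjusted p of 0.964 for each. Without posterior medial replicate 2 these were 4.03 for Prelp, 1.67 for Fmod and 0.73 for Omd (unadjusted p = 0.062), and Ogn (1.23), Aspn (1.32) and Lum (0.70) then had an unadjusted p of 0.0104, 0.0132 and 0.0327, with adjusted p between 0.530 and 0.879 for the 6 genes. For oral minus nasal, the posterior value of Kera exceeded the anterior one by 6.83 (adjusted p = 0.150). Kera was lower on the oral side in all 3 anterior runs that hold both sides, and higher on the oral side in both posterior ones, by 0.32 and 3.80.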

How the results depend on the processing

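In these fits, the count of members passing changed as follows, and every other count of members under the alternatives run was as in the report. For anterior lateral against medial, where 1 member (Kera) had passed, it was 0 without the filter on low values and 0 in the fits of all 25 libraries with or without sequencing run. Leaving out 1 replicate at a time gave 0 to 1 there, because Kera no longer met the filter of 5 RPKM in 3 libraries when any anterior lateral library was left out. Within medial tissue, the count of 1 (Kera) became 0 without the filter (adjusted p = 0.0589), in the fit of all 25 libraries (0.0614) and without any 1 replicate (0 throughout), since Kera did not pass without an anterior medial library and no longer met the filter without a posterior medial one. With sequencing run added, Kera did not pass (0.123) and Fmod did (0.0399). The log2 difference of Kera stayed between 4.69 and 6.05 wherever it was tested. With the replicate block, where numbers were not shown to pair these libraries, the count within medial tissue was 0 (Kera adjusted p = 0.166), and the block changed no other call of a member. For posterior against anterior over all libraries, Dcn made it 1 after quantile normalization and 1 in the fit of all 25 libraries, and leaving out 1 replicate gave 0 to 1. In nasal tissue along the axis, Dcn made it 1 with log2(RPKM + 1), with median centring, with quantile normalization and with the trend, and leaving out 1 replicate gave 0 to 1 (Dcn without anterior nasal replicate 4 or Kera without posterior nasal replicate 2). Leaving out 1 replicate also gave 0 to 1 for anterior oral against nasal (Kera), for posterior against anterior lateral tissue (Aspn without posterior lateral replicate 1, Kera without replicate 2) and for the oral minus nasal interaction (Kera). For any difference among the 8 compartments, Kera and Dcn made it 2 with log2(RPKM + 1), 2 after quantile normalization and 2 with the trend, leaving out 1 replicate gave 0 to 2, and without posterior medial replicate 2 and anterior oral replicate 1, an alternative chosen after seeing the data, it was 3 (Dcn, Lum and Aspn). The cause of these changes was not tested where none is named. No difference that passed in the report's fit changed sign in these alternatives, and signs of the others were not counted. Over all genes, the counts passing in the alternatives other than single left-out replicates ranged from 0 to 318 for anterior lateral against medial (262 in the report's fit), 0 to 25 for posterior lateral against medial (0), 0 to 6 for anterior oral against nasal (0), 11 to 143 for posterior oral against nasal (132), 143 to 559 for posterior against anterior (286), 0 to 166 within medial (11), 11 to 163 within lateral (145), 0 to 49 within oral (19), 33 to 319 within nasal tissue (235), 0 to 10 for each interaction (1 and 4) and 177 to 917 among the 8 compartments (526). Depth limits Epyc throughout, Prelp in the libraries where it is low (median 50 implied reads, lowest 1), and Kera wherever it is under 2 RPKM.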
